A study of Mus musculus with 12 samples.

Results

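The genes described here encode the proteins that make microRNAs and carry out silencing: Drosha, Dgcr8, Xpo5, Dicer1, Tarbp2, Prkra and the Argonaute genes Ago1, Ago2, Ago3 and Ago4. They were chosen by symbol, and 9 of the 10 had a row among the 15767 genes of the deposited tables. Dicer1 is not analysed here. RNA was sequenced from Neuro-2a, a wild-type mouse neuroblastoma cell line, in 3 groups of 4 libraries: cells given a miR-155 mimic, cells given a miR-155 inhibitor, and cells given a control small RNA. All were transfected with the reagent RNA Fit in medium free of serum and antibiotics, moved to growth medium after 4 h and kept until day 2. Libraries carry a replicate number from 1 to 4 within each group, and the labels do not say what the number marks or whether libraries came from separate cultures. Spread between libraries may thus be technical, and the p-values below measure no more than that spread. Neither miR-155 nor the uptake of the reagents is measured by the values used here.

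A primary microRNA transcript is cut in the nucleus by Drosha, an RNase III enzyme, bound to the RNA-binding protein DGCR8. Exportin-5, encoded by Xpo5, carries the resulting hairpin to the cytoplasm, where Dicer cuts it to a duplex with the help of the related partner proteins TRBP (Tarbp2) and PACT (Prkra). An Argonaute protein keeps a single strand of the duplex as its guide, and a transfected mimic enters this route at the Argonaute step.

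The mature strand that the mimic is named for is shown because the seed matches below refer to it. A hairpin within a member gene is shown as background, and no result below rests on it. Both are RefSeq sequences on GRCm38.p6, written 5′ to 3′. Capitals mark the seed, bases 2 to 8, of mmu-miR-155-5p (chr16:84714143-84714165, plus strand).
mmu-miR-155-5p: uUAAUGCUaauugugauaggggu
In the next sequence, capitals mark the mature arms in the Mir1306 hairpin (chr16:18284239-18284317, minus strand), which lies within a coding exon of Dgcr8 in GENCODE M21. The Drosha and DGCR8 complex is known to cut hairpins in the Dgcr8 mRNA itself.
Mir1306: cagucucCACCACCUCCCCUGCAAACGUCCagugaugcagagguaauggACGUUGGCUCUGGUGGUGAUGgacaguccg

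A seed match in a 3' UTR is a stretch complementary to the seed. AGCATTAA (8mer), AGCATTA (7mer-m8) and GCATTAA (7mer-A1) were searched on the transcribed strand of the longest annotated 3' UTR, and a stretch was counted once, under its longest form. Of the 9 members, Ago2 held 1 such match and Ago3 held 3, and the other members held 0. The windows are given on GRCm38 with the match in capitals.
Ago2 8mer (chr15:73099258-73099285, minus strand): ggtacaattcAGCATTAAattaaaattt
Ago3 8mer (chr4:126338687-126338714, minus strand): ggagcaaacaAGCATTAAtaaactggat
Ago3 7mer-m8 (chr4:126339171-126339197, minus strand): ccttgtctgcAGCATTAtgtaagaaca
Ago3 7mer-A1 (chr4:126338788-126338814, minus strand): tacacaatggGCATTAAagacagcctt
These are also the members with the longest 3' UTRs, at 11064 bases for Ago2 and 12742 bases for Ago3, against 169 bases for Drosha. The Ago2 match starts at base 7633 of its longest 3' UTR, and the Ago3 matches start at bases 6287, 6670 and 6770. Whether the transcripts present in these cells reach those sites was not tested. Over the 12893 tested genes with an annotated 3' UTR the median length was 1305 bases, 13.8% held a match of any form and 3.11% held an 8mer.

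Total counts ran from 60695388 to 74200532 per library. Of 14 markers of sympathetic neuroblastoma cells, 12 averaged above 1 CPM (counts scaled to library size), among them Hand2 at 667 CPM and Uchl1 at 766 CPM, while Nefl was near 0 at 0.017 CPM. Of the markers of other cell types, Mbp (13 CPM, glial), Pecam1 (6.53 CPM, endothelial), Pdgfra (1.64 CPM, fibroblast) and Krt8 (1.14 CPM, epithelial) averaged above 1 CPM, while Col1a2, Sox10, Ptprc and Epcam were each below 0.05 CPM. In such bulk RNA, fewer cells expressing a gene and less of its RNA per cell cannot be told apart. The 3 libraries numbered 4 stood apart from the other 9, and this touches most results below.

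TPM values are scaled by transcript length. The order of genes below thus rests on the lengths used, which the sources used here do not give. In CPM, not scaled by length, Ago2 averaged above Xpo5 in each group, at 348.3 and 302.0 CPM in control. Xpo5 was the highest member, at 181.1 ± 22.4 TPM over the 12 libraries (SD), and ranked 1058th by mean TPM. Ago2 followed at 144.9 ± 17.6 TPM, Prkra at 123.6 ± 17.0 TPM and Drosha at 109.5 ± 6.99 TPM. The ranges of neighbours in this leading set overlapped, yet within a library Ago2 exceeded Prkra in 12 of 12 and Prkra exceeded Drosha in 11 of 12. Xpo5 exceeded Ago2 in the 9 libraries numbered 1 to 3. In number 4 the order was turned, with Xpo5 at 146.7 and Ago2 at 153.3 TPM in mimic, Xpo5 at 144.3 and Ago2 at 155.1 TPM in inhibitor, and Xpo5 at 145.8 and Ago2 at 171.9 TPM in control.

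In TPM, the second tier stood well below. Drosha was 3.96 times as high as Tarbp2, which averaged 27.6 ± 4.02 TPM, and their ranges did not overlap. The place of Prkra above this tier holds in TPM only. In CPM it averaged 45.8 in control, below Tarbp2 at 65.5 and Ago1 at 57.0. Dgcr8 averaged 16.4 ± 2.90 TPM and Ago1 12.9 ± 1.32 TPM, and the ranges of these neighbours overlapped. The median gene of the table had a mean of 12.1 TPM. Ago3 (2.54 ± 0.428 TPM) and Ago4 (0.995 ± 0.290 TPM) came last, and Ago4 rested on 49 to 130 counts per library.

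**Figure D1:**
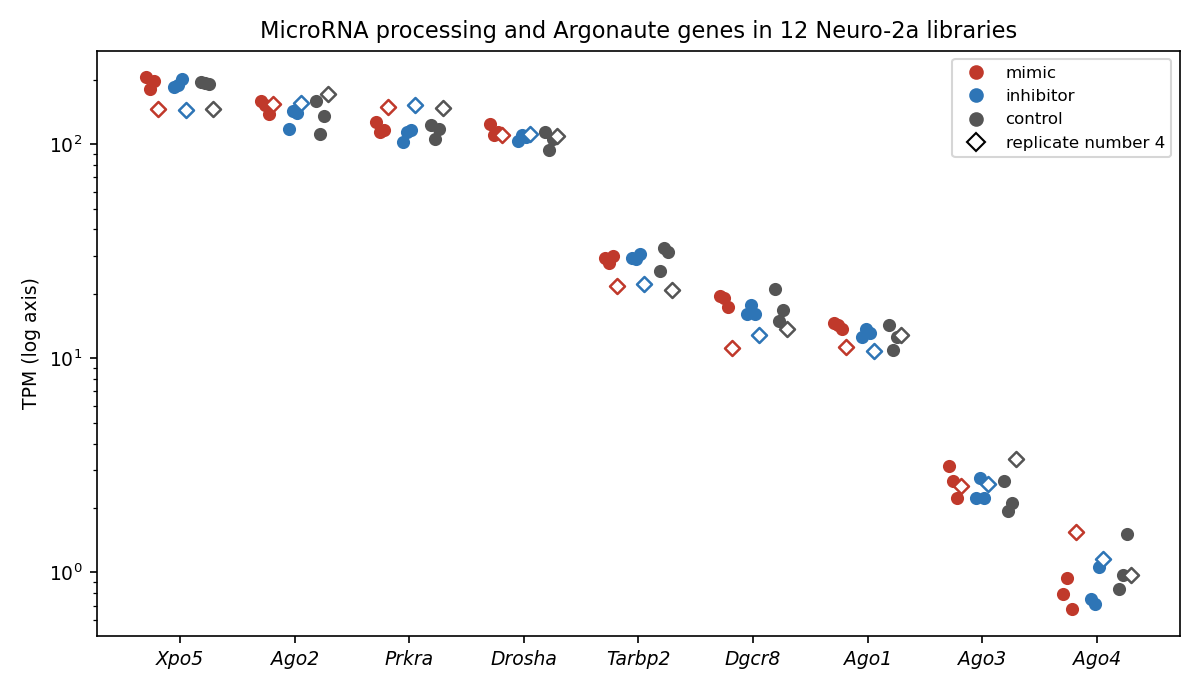
TPM on a log axis for each of the 9 measured genes, ordered by mean level, with 4 points per group (mimic, inhibitor, control from left to right) and open diamonds for the libraries numbered 4. Xpo5, Ago2, Prkra and Drosha lie between 94.2 and 205.1 TPM in all 12 libraries, and the number 4 diamonds lie below the circles for Xpo5 and Tarbp2 and above them for Prkra.

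Among the Argonautes, Ago2, the member with the well-known slicer activity in mammals, supplied 89.7 ± 0.890% of the summed Argonaute TPM (SD, n = 12), with a range of 88.4% to 91.4%. Ago1 supplied 8.06 ± 0.935%, Ago3 1.57 ± 0.139% and Ago4 0.623 ± 0.191%. Ago1, Ago3 and Ago4 are neighbours on chromosome 4 of GRCm38 (Ago1 at chr4:126435012-126468583, minus strand) and Ago2 lies on chromosome 15. The sources used here do not give how reads shared by close paralogs were counted, or the transcript lengths behind the TPM values. These shares depend on those lengths. In CPM, not scaled by length, Ago2 and Ago1 averaged 348.3 and 57.0 in control, relatively closer than their 144.7 and 12.7 TPM there. By treatment, the Ago2 share was 89.8 ± 0.720% in mimic, 89.6 ± 1.28% in inhibitor and 89.8 ± 0.848% in control (SD over 4 libraries each).

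Within the nuclear pair, Drosha TPM was 7.11 ± 1.87 times Dgcr8 TPM in mimic, 7.00 ± 1.14 times in inhibitor and 6.49 ± 1.06 times in control, with SD over 4 libraries each. Prkra TPM was 4.77 ± 1.38 times Tarbp2 TPM in mimic, 4.50 ± 1.58 times in inhibitor and 4.70 ± 1.70 times in control. In CPM, not scaled by length, the order of these partners was turned. Tarbp2 averaged 63.0, 65.8 and 65.5 CPM and Prkra 46.3, 45.3 and 45.8 CPM in mimic, inhibitor and control. Only in the libraries numbered 4 was Prkra above Tarbp2 in CPM.

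The first comparisons asked whether cells given the mimic or the inhibitor differ in this machinery. No member passed the test in any of the 3 treatment contrasts. With edgeR's quasi-likelihood test over 13014 genes, 0 of 9 members had an adjusted p (Benjamini-Hochberg) under 0.05, the threshold for a call. The share called among all genes was 0% in mimic against control, 0% in inhibitor against control and 0% in mimic against inhibitor. At an unadjusted p under 0.05 the member count was also 0 in each contrast, with edgeR, DESeq2 and limma alike. Over all genes, 71, 67 and 77 genes reached an unadjusted p under 0.05 in those contrasts by edgeR. Each count is far below a share of 0.05 of the 13014 genes, so these p-values ran larger than chance alone would give. The fit had group alone, so differences by replicate number add to its spread. With replicate number added as a block, the counts stayed below that share. The counts of the fit with group alone moved with single libraries. Mimic against control gave 322 without control replicate 4, 133 without mimic replicate 4 and 121 without control replicate 1. Inhibitor against control gave 184 without control replicate 2, 170 without control replicate 4 and 116 without inhibitor replicate 4. Mimic against inhibitor gave 126 without mimic replicate 4. In numbers 1 to 3 alone the counts were 379 in mimic against control, 189 in inhibitor against control and 163 in mimic against inhibitor, still with 0 members.

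Drosha had the narrowest spread. In mimic libraries 1 to 4 it measured 288.9, 262.5, 280.3 and 276.4 CPM. In inhibitor libraries it measured 261.4, 267.6, 265.6 and 277.1 CPM. In control libraries it measured 271.8, 245.6, 260.9 and 266.2 CPM. Mimic was above the control of the same number at 4 of 4 numbers, a pairing the labels do not give, and the groups overlapped. The log2 fold change was 0.09 in mimic against control (95% interval -0.03 to 0.20, adjusted p = 1 by edgeR), 0.04 in inhibitor against control (-0.08 to 0.15) and 0.05 in mimic against inhibitor (-0.06 to 0.16).

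Ago2, which takes up small RNA guides, holds an 8mer match in its longest annotated 3' UTR. It measured 364.0, 355.2, 333.9 and 377.0 CPM in mimic libraries 1 to 4. In inhibitor libraries it measured 292.2, 337.6, 336.5 and 377.4 CPM, and in control libraries 371.9, 283.5, 327.7 and 409.9 CPM. Control held both the lowest and the highest of the 12 values. The log2 fold change was 0.04 in mimic against control (-0.19 to 0.27), -0.05 in inhibitor against control (-0.28 to 0.18) and 0.09 in mimic against inhibitor (-0.14 to 0.32), each with an adjusted p of 1 by edgeR.

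Ago3 has 3 matches in its longest annotated 3' UTR. It measured 8.86, 7.77, 6.64 and 7.70 CPM in mimic, 6.86, 8.09, 6.59 and 7.82 CPM in inhibitor, and 7.72, 6.11, 6.28 and 10.0 CPM in control. Its log2 fold change was 0.04 in mimic against control (-0.31 to 0.39) and -0.04 in inhibitor against control (-0.39 to 0.31). The libraries of the 3 groups overlapped for Ago3 as for the other 8 members, in 27 of 27 comparisons. Over all tested genes, libraries did not overlap for 0.684% of genes in mimic against control, 0.645% in inhibitor against control and 0.861% in mimic against inhibitor.

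Ago1, an Argonaute that silences largely without slicing, gave a log2 fold change of 0.06 for mimic against control (-0.13 to 0.26) and -0.01 in inhibitor against control (-0.20 to 0.18). At 4 of 4 numbers Ago1 was higher in mimic than in inhibitor, with a log2 fold change of 0.07 (-0.12 to 0.27). For the hairpin processing and export genes other than Drosha, mimic against control gave log2 fold changes of -0.01 for Dgcr8, -0.02 for Xpo5, -0.06 for Tarbp2 and 0.01 for Prkra. At 4 of 4 numbers Tarbp2 was lower in mimic than in inhibitor, with a log2 fold change of -0.06 (-0.41 to 0.28). These 4 of 4 cases, with that of Drosha in mimic against control, were picked from 27 comparisons of members. The share of such cases over all genes was not taken, so they are no result about the members. Leaving out Ago4, the 24 intervals all included 0 and reached from -0.43 to 0.43 on the log2 scale, or a fold of 0.741 to 1.35. They come from the fit with group alone, so differences by replicate number add to their width. The lowest bound was that of Dgcr8, with a standard error of 0.164 in that fit. Its standard error was 0.081 for number 4 against numbers 1 to 3, from the fit with number. For Ago4, at about 1 CPM, the intervals reached from -0.91 to 0.76, and a difference of this width was not detectable.

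Group means were compared with the spread within groups. Dgcr8 averaged 45.4 ± 9.52 CPM in mimic, 43.5 ± 5.43 CPM in inhibitor and 45.9 ± 7.72 CPM in control (SD over 4 libraries each). Xpo5 averaged 297.3 ± 35.7 CPM in mimic, 299.6 ± 40.0 CPM in inhibitor and 302.0 ± 43.4 CPM in control. Prkra averaged 46.3 ± 6.90 CPM in mimic, 45.3 ± 8.22 CPM in inhibitor and 45.8 ± 5.68 CPM in control. For these 3 genes the SD within each group was larger than the distance between the group means, but that SD includes number 4. Without number 4, Xpo5 averaged 313.5 ± 18.2 CPM in mimic, 318.9 ± 13.3 CPM in inhibitor and 322.7 ± 15.4 CPM in control (SD over 3 libraries each). Without number 4, Dgcr8 averaged 50.1 ± 1.90 CPM in mimic, 46.1 ± 1.94 CPM in inhibitor and 48.7 ± 6.40 CPM in control, so mimic and inhibitor lay further apart than their SDs. Over 4 libraries, Drosha averaged 277.0 ± 10.98 CPM in mimic, 267.9 ± 6.63 CPM in inhibitor and 261.1 ± 11.3 CPM in control, and mimic and control lay further apart than their SDs. Ago2 averaged 357.5 ± 18.1 CPM in mimic, 335.9 ± 34.8 CPM in inhibitor and 348.3 ± 54.7 CPM in control. None of these differences passed the edgeR test, with all libraries or in numbers 1 to 3 alone.

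The members' median log2 fold change was 0.0145 in mimic against control, beside -0.0068 for all tested genes. In inhibitor against control it was -0.0175, beside -0.00993 for all genes. In mimic against inhibitor it was 0.0633, beside 0.00243 for all genes. The first and second of these contrasts share their control libraries.

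**Figure D2:**
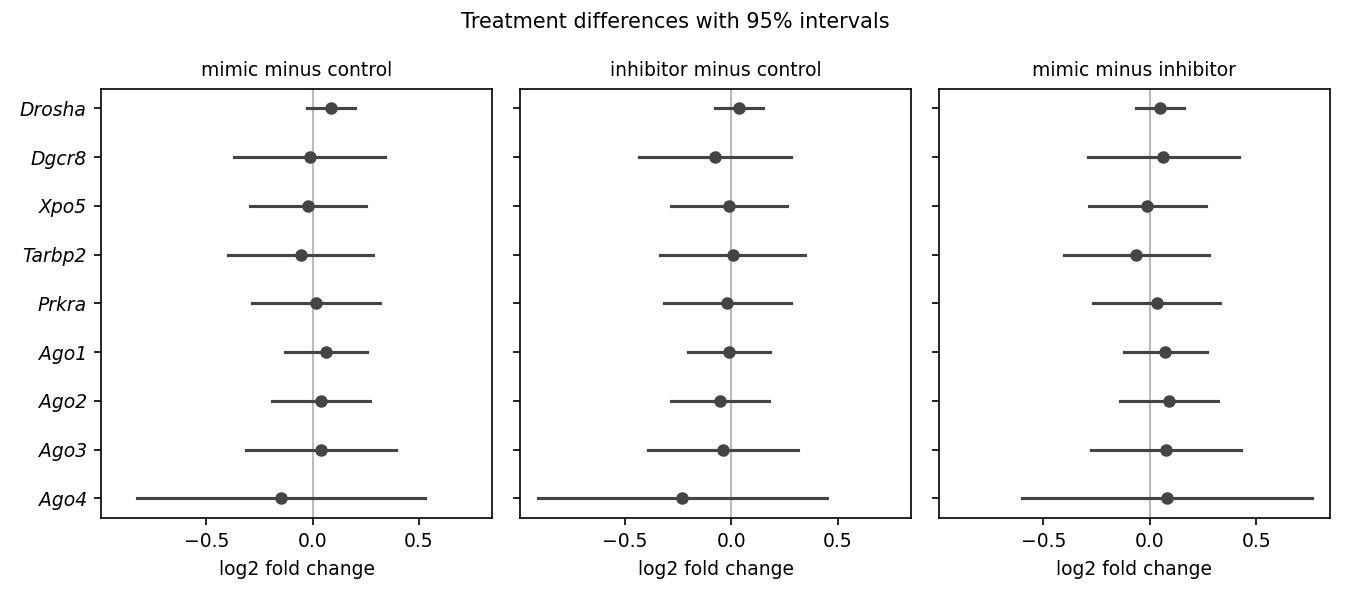
Log2 fold change (point) and 95% interval (line) of each of the 9 genes in mimic minus control, inhibitor minus control and mimic minus inhibitor, from edgeR. Each of the 27 intervals crosses 0, and Ago4 has the widest.

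Libraries of the same treatment were then compared by replicate number. An F test of the number, with treatment held fixed, called 4 of 9 members: Xpo5 (adjusted p = 0.00157 by edgeR), Prkra (0.00173), Dgcr8 (0.00673) and Tarbp2 (0.0116). Among all tested genes it called 27.3%. Tarbp2 lost its call without inhibitor replicate 4 (adjusted p = 0.0641 by edgeR) or control replicate 4 (adjusted p = 0.0875). Without number 4 of mimic, inhibitor or control the same test called 2180, 1807 or 1877 genes, and without control replicate 2 it called 5884, beside 3547 with all libraries. Among the libraries numbered 1 to 3 alone, chosen after seeing the data, edgeR called 0 members and 0 genes by number, and 119 genes had an unadjusted p under 0.05. The libraries numbered 4 were also set against those numbered 1 to 3, a contrast chosen with earlier results of these data known. It called 5 of 9 members, beside 41.5% of all tested genes, with 20.4% of all genes higher and 21.1% lower. The members' median absolute log2 fold change was 0.387, beside 0.231 for all genes. The 9 members were not matched to all genes by level, so these shares and medians do not show an excess particular to them.

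Dgcr8, Xpo5 and Tarbp2 fell in the libraries numbered 4. Dgcr8, the RNA-binding subunit of the nuclear complex, measured 31.3, 35.7 and 37.4 CPM in number 4 of mimic, inhibitor and control, against a lowest of 43.6, a median of 47.9 and a highest of 55.9 CPM in the 9 libraries numbered 1 to 3. The groups did not overlap, and the log2 fold change was -0.47 (95% interval -0.65 to -0.29, adjusted p = 0.000917 by edgeR), a fold of 0.721. Drosha, the partner that cuts the hairpin, measured 276.4, 277.1 and 266.2 CPM in number 4 and 245.6 to 288.9 CPM in numbers 1 to 3, with a log2 fold change of 0.03 (-0.06 to 0.13, adjusted p = 0.554 by edgeR). The Drosha to Dgcr8 TPM ratio was 8.84 ± 0.960 in number 4 (SD, n = 3) and 6.21 ± 0.393 in numbers 1 to 3 (SD, n = 9).

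Xpo5, the nuclear export receptor of hairpins, measured 248.6, 241.9 and 239.7 CPM in number 4 of mimic, inhibitor and control, against a lowest of 292.5, a median of 316.7 and a highest of 340.3 CPM in numbers 1 to 3. Its log2 fold change was -0.39 (-0.50 to -0.27, adjusted p = 0.000168 by edgeR), a fold of 0.765. The groups did not overlap, and the number 4 values of the 3 treatments lay close together.

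The partners of Dicer moved in opposite directions. Tarbp2 measured 52.3, 52.9 and 48.5 CPM in number 4 of mimic, inhibitor and control, against a lowest of 58.2, a median of 70.7 and a highest of 81.3 CPM in numbers 1 to 3. Prkra measured 56.4, 57.4 and 54.2 CPM in number 4, against a lowest of 39.0, a median of 43.0 and a highest of 44.5 CPM in numbers 1 to 3. Neither gene overlapped between the sets: every number 4 library was below the others for Tarbp2 and above them for Prkra. The log2 fold change was -0.43 for Tarbp2 (-0.62 to -0.25, adjusted p = 0.00186 by edgeR) and 0.40 for Prkra (0.28 to 0.52, adjusted p = 0.000186). In TPM, Prkra was 6.91 ± 0.125 times Tarbp2 in number 4 (SD, n = 3) and 3.91 ± 0.458 times in numbers 1 to 3 (SD, n = 9).

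**Figure D3:**
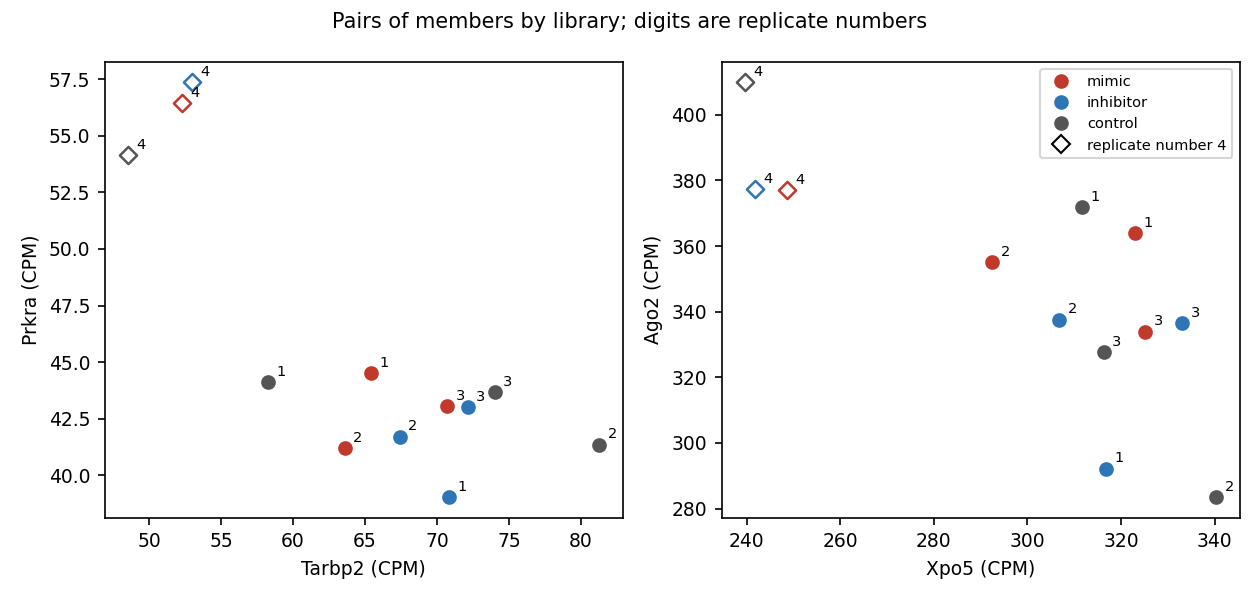
CPM of Prkra against Tarbp2 (left) and of Ago2 against Xpo5 (right), a point per library, coloured by group, with digits for the replicate number and open diamonds for number 4. The 3 number 4 libraries form the upper left corner of each panel, with Tarbp2 at or below 52.9 CPM and Prkra at or above 54.2 CPM.

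Of the Argonautes, Ago2 alone was called. It measured 377.0, 377.4 and 409.9 CPM in number 4 of mimic, inhibitor and control, against a lowest of 283.5, a median of 336.5 and a highest of 371.9 CPM in numbers 1 to 3. The gap between the sets was small, and the log2 fold change was 0.22 (0.05 to 0.39, adjusted p = 0.0434 by edgeR). The call was lost in 10 of 19 alternatives, with an adjusted p as high as 0.253 without control replicate 4, where the log2 fold change was 0.16.

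Ago1 measured 51.9, 49.0 and 57.4 CPM in number 4 of mimic, inhibitor and control, and 52.0 to 62.4 CPM in numbers 1 to 3, with a log2 fold change of -0.17 (-0.32 to -0.01, adjusted p = 0.075 by edgeR). It passed without control replicate 2 (-0.20, adjusted p = 0.00553) or without control replicate 4 (-0.27, adjusted p = 0.0226). The Ago1 share of Argonaute TPM was 6.63 ± 0.235% in number 4 and 8.53 ± 0.407% in numbers 1 to 3, and the Ago2 share was 91.1 ± 0.317% in number 4 and 89.3 ± 0.453% in numbers 1 to 3. Ago3 had a log2 fold change of 0.25 (-0.03 to 0.52, adjusted p = 0.136 by edgeR). Ago4 measured 1.80, 1.33 and 1.10 CPM in number 4 of mimic, inhibitor and control, and 0.766 to 1.73 CPM in numbers 1 to 3, with a log2 fold change of 0.47 (-0.10 to 1.04, adjusted p = 0.170 by edgeR).

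Libraries numbered 4 and those numbered 1 to 3 did not overlap in CPM for 5 of 9 members, beside 36.9% of all tested genes. In TPM the Ago2 ranges did overlap, at 153.3 to 171.9 in number 4 and 111.3 to 159.8 in numbers 1 to 3. A test of whether the number 4 difference depended on treatment, added after seeing the data, had 1 number 4 library per treatment, each assumed to vary like the others. It gave an adjusted p of 1 by edgeR for each of the 9 members, with unadjusted p from 0.129 for Ago1 to 0.837 for Drosha. Over all 13014 genes it called 7, and 209 had an unadjusted p under 0.05. With single libraries it does not show that the members' differences were alike in the 3 treatments. Dgcr8 had the lowest value in mimic, with a log2 difference of -0.677 between number 4 and the mean of numbers 1 to 3, against -0.368 in inhibitor and -0.375 in control. For Ago3 the log2 difference was -0.000154 in mimic, 0.128 in inhibitor and 0.590 in control.

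**Figure D4:**
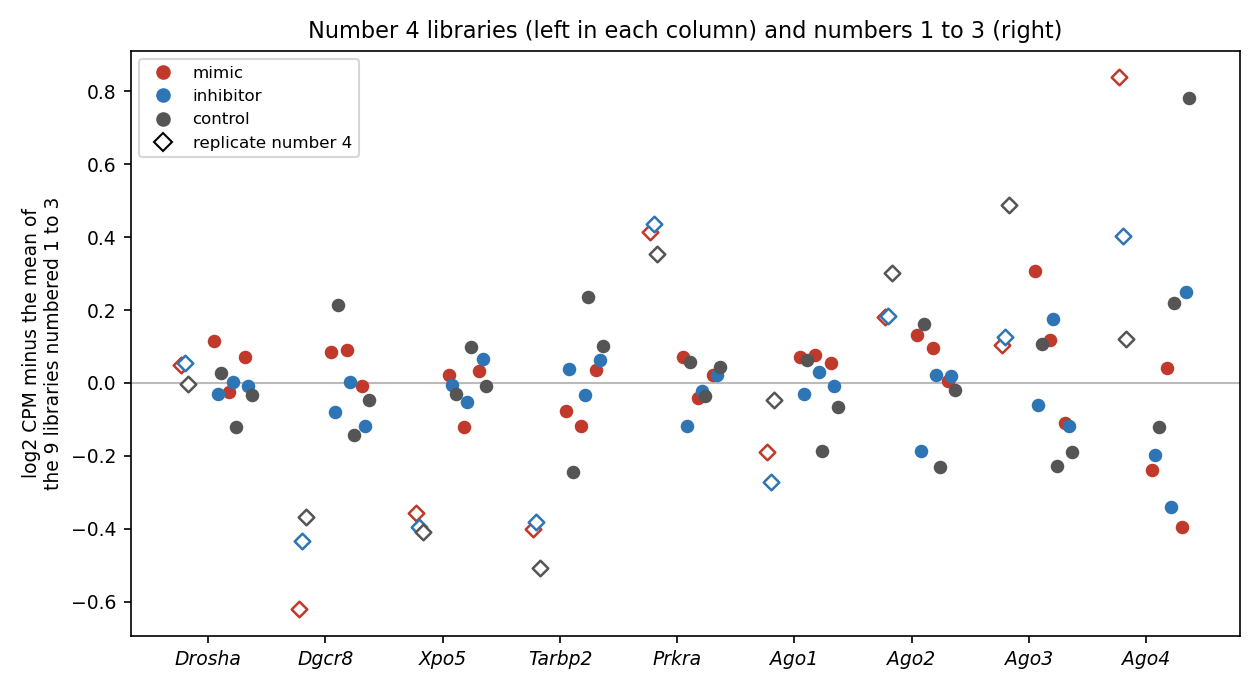
Log2 CPM of each gene minus its mean over the 9 libraries numbered 1 to 3, with number 4 libraries as open diamonds at the left of each column and numbers 1, 2 and 3 in turn to their right, coloured by group. Diamonds lie below every circle for Dgcr8, Xpo5 and Tarbp2 and above every circle for Prkra and Ago2, while those of Drosha lie among the circles.

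Total counts did not separate number 4: they ran from 62389350 to 68734250 in number 4 and from 60695388 to 74200532 in numbers 1 to 3. The summed CPM of the 14 neuroblastoma markers was 2810 to 2990 in number 4 and 2990 to 3470 in numbers 1 to 3. Of markers of other cells, the 4 glial genes summed to 15.2 to 17.0 CPM in number 4 and 11.5 to 15.0 CPM in numbers 1 to 3. The 4 measured of 5 immune and endothelial genes summed to 8.08 to 8.81 CPM in number 4 and 4.49 to 7.71 CPM in numbers 1 to 3. These sums came mostly from Mbp and Pecam1, with Sox10, Ptprc and Cdh5 near 0. The sums of 4 fibroblast genes overlapped, at 2.38 to 4.23 CPM in number 4 and 1.63 to 2.85 CPM in numbers 1 to 3. Those of the 2 measured of 3 epithelial genes also overlapped, at 1.27 to 2.30 CPM in number 4 and 0.555 to 1.51 CPM in numbers 1 to 3. The part of these markers in the members' differences was not tested.

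Within numbers 1 to 3, control replicates 1 and 2 lay at opposite ends for several members. Control replicate 1 had the highest Dgcr8 (55.9 CPM) and Ago2 (371.9 CPM) and the lowest Tarbp2 (58.2 CPM) of these 9 libraries. Control replicate 2 had the lowest Dgcr8 (43.6 CPM), Ago2 (283.5 CPM) and Ago1 (52.0 CPM) and the highest Tarbp2 (81.3 CPM) and Xpo5 (340.3 CPM). Tarbp2 thus ranged more widely among the controls (65.5 ± 14.8 CPM) than in mimic (63.0 ± 7.74 CPM) or inhibitor (65.8 ± 8.82 CPM; SD, n = 4 each), a difference in spread that was not tested.

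In GENCODE M21, 4 members overlap a gene on the opposite strand. Dgcr8 overlaps Trmt2a and Ago2 overlaps Chrac1, which are protein-coding, while Xpo5 overlaps the small nuclear RNA gene Gm22474 and Ago4 the pseudogene Gm12935. Dgcr8 also overlaps the protein-coding Gm49776 on its own strand. The sources used here do not give whether counting used strand, so reads of such pairs may not be told apart. Trmt2a measured 68.7 CPM in number 4 and 81.3 CPM in numbers 1 to 3, above Dgcr8 at 34.8 CPM in number 4 and 48.3 CPM in numbers 1 to 3, and both were lower in number 4. The part of shared reads in the Dgcr8 difference was not tested. In number 4 against numbers 1 to 3, Chrac1 had a log2 fold change of -0.47 (adjusted p = 0.00048 by edgeR) and Trmt2a one of -0.24 (adjusted p = 0.00559 by edgeR). Chrac1 measured 36.6 CPM in number 4 and 50.5 CPM in numbers 1 to 3, below Ago2 at 388.1 CPM in number 4 and 333.6 CPM in numbers 1 to 3.

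The wider small RNA pathway was described with 5 lists of 90 other genes, of which 89 were tested. In each treatment contrast 0 of these 89 were called by edgeR, and 0 had an unadjusted p under 0.05. Nearest in mimic against control were Cnot4, a ubiquitin ligase that binds the CCR4-NOT complex, at a log2 fold change of 0.17 (-0.02 to 0.36), Eif4enif1, an eIF4E-binding repressor, at 0.10 (-0.02 to 0.23) and Lsm14b at 0.06 (-0.06 to 0.18). In mimic against inhibitor Cnot4 was at 0.16, Eif4enif1 at 0.08 and Lsm14b at 0.06. Nearest in inhibitor against control were Srrt, a cap-complex partner of primary microRNA processing, at 0.15 (-0.11 to 0.40), Hnrnpa2b1 at 0.10 (-0.08 to 0.28) and Limd1, an Argonaute-binding LIM protein, at -0.10 (-0.29 to 0.09).

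By replicate number, the F test called 41 of the 89, or 46.1%, beside 27.3% of all tested genes. In number 4 against numbers 1 to 3, 30 rose and 21 fell, or 57.3% called beside 41.5% of all genes. The listed genes were not matched to all genes by level, and calls are harder to reach at low counts. These shares therefore do not show an excess particular to the pathway. Nuclear cofactors and export genes had 4 of 17 higher and 7 of 17 lower. Adar, which edits adenosines in double-stranded RNA, measured 105 ± 3.68 CPM in number 4 (SD, n = 3) and 158 ± 5.14 CPM in numbers 1 to 3 (SD, n = 9), with a log2 fold change of -0.59. Ncbp2, a cap-binding subunit, had -0.43 and Safb, a nuclear scaffold protein, -0.31.

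Genes of loading and of Argonaute partners had 12 of 23 higher and 4 of 23 lower. P4ha1, a prolyl hydroxylase subunit known to modify Ago2 protein in human cells, measured 252 ± 11.6 CPM in number 4 and 79.6 ± 5.47 CPM in numbers 1 to 3, with a log2 fold change of 1.67 (1.58 to 1.76, adjusted p = 1.99e-09 by edgeR). Hspa8, a chaperone of Argonaute loading, measured 1500 ± 46.7 CPM in number 4 and 641 ± 101 CPM in numbers 1 to 3, a log2 fold change of 1.24. Mov10, an RNA helicase that binds Argonautes, had one of 0.48.

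Silencing effectors had 7 of 20 higher and 4 of 20 lower. Gigyf2, a translational repressor, had a log2 fold change of 0.56, Patl1, a decapping activator, 0.40 and Dcp1b, a decapping cofactor, -0.38. The GW182 scaffolds that Argonautes bind, looked at after their values were seen, were split: Tnrc6b rose by 0.30 on the log2 scale (adjusted p = 0.0192 by edgeR) and Tnrc6c fell by 0.33 (adjusted p = 0.0077 by edgeR). Tnrc6a had a log2 fold change of 0.34 (adjusted p = 0.0562). In the CCR4-NOT deadenylase list 6 of 15 were higher and 4 of 15 lower, with Btg2, an antiproliferative recruiter of the deadenylase, at 0.86, Tob1, a related protein, at 0.39 and Cnot1, the scaffold, at 0.42. In the list of tailing and decay genes 1 of 14 was higher and 2 of 14 were lower, so 21.4% were called. Lin28a, which blocks let-7 maturation, had a log2 fold change of 0.28. Parn, a poly(A)-specific ribonuclease, had -0.25 and Zswim8, a ubiquitin ligase subunit of target-directed microRNA decay, -0.29.

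For each member, the gene of most similar log2(CPM + 1) over the 12 libraries was taken from 9212 genes averaging at least 10 CPM. Pearson's r is given as a description, since the points share libraries and the number 4 set stands apart. Each gene was picked for the highest r among 9212, and the 9 libraries numbered 1 to 3 are part of the 12. The r over those 9 is thus no independent check. Ago2 was nearest to Wasl (r = 0.990 over 12 libraries and 0.990 over the 9 numbered 1 to 3), Xpo5 to Sgf29 (0.995 and 0.960) and Tarbp2 to Esrra (0.980 and 0.930). Drosha was nearest to Zc3h18 (0.941 and 0.968), Ago1 to Tfb2m (0.948 and 0.930) and Ago3 to Tnrc6a (0.943 and 0.938). Ago4 was nearest to Tcp11l1 (0.956 and 0.935). For Dgcr8 and Prkra the likeness was weaker without number 4, with Lrif1 at 0.969 and 0.811 and Rbpms at 0.984 and 0.776.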

How the data were processed

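The authors deposited whole-number read counts per gene and TPM values for the same 15767 genes. The submitters' processing notes name GRCm39, edgeR, StringTie, featureCounts, STAR and fastp. The sources used here give no versions, settings or strandedness for them. Members were matched by symbol in the TPM table and joined to the counts by gene identifier.

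Counts were tested with edgeR 4.0.16 (limma 3.58.1, R 4.3.3) with TMM scaling, filterByExpr (13014 genes kept, with all 9 measured members) and robust quasi-likelihood fits over the 12 libraries. Tests were two-sided. The treatment fit had group alone, and the number fit had group and replicate number. CPM uses TMM-scaled library sizes. DESeq2 1.42.0, limma on log2(TPM + 1) and other alternatives were also run, and the steps were tested on simulated data. Intervals rest on the spread between libraries. The members and lists were chosen with earlier results of these data known. Named pathway genes are those with the smallest p per list for the number and over all lists for each treatment contrast, and the Tnrc6 genes were added later. Within-group library pairs differed by a chi-square of at least 20.2 per degree of freedom, so none was taken as a copy. Reference annotation was GENCODE M21 (GRCm38), which differs from the authors' build, and served for sequences, 3' UTRs, neighbours and the coordinates printed.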

Additional observations from a re-analysis of the deposited data

Results flagged for a closer look

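In mimic, replicate number 4 lay far from the other 3 libraries for Dgcr8, at 31.3 CPM beside 47.9 to 51.3 CPM, and for Ago1, at 51.9 CPM beside 61.4 to 62.4 CPM. The gap to the nearest library was 0.830 of the group's range for Dgcr8, only just above Dixon's 95% critical value for 4 samples, and 0.906 for Ago1. These were 2 of 27 groups examined, and chance alone flags about 1 in 20. Both come from number 4, the set that differed for 41.5% of all tested genes.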

How the results depend on the processing

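No member was called in a treatment contrast under any of the 22 alternatives run, and the smallest adjusted p of a member was 0.865. Of the 27 treatment log2 fold changes of members, 19 changed sign under at least 1 alternative, and the largest absolute value was 0.531. DESeq2 called 2 genes in mimic against control and 4 in mimic against inhibitor, where edgeR called 0. Leaving out single libraries, these contrasts gave 0 to 1 genes (1 without control replicate 2). With the replicate number as a replicate block, 0 genes and 0 members were called in each treatment contrast, and 191 genes in mimic against control, 161 in inhibitor against control and 139 in mimic against inhibitor had an unadjusted p under 0.05. Libraries of the same number deviated together from their group means with r over 0.1 in 9 of 12 pairs (r from -0.131 to 0.797). Of the 12 libraries, 8 correlated best with their own number. The group means include number 4, so libraries numbered 1 to 3 can deviate together whatever their number. Values of r for pairs of unlike number are not given here. This is at most a hint from the data and not from the labels, so the block is not the main design. The F test of number called 1807 to 5884 genes and 3 to 6 members without single libraries. Among numbers 1 to 3 alone, chosen after seeing the data, it called 0 genes and 0 members.

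Signs turned as follows in mimic against control. Dgcr8 gave 0.00236 and 0.00134 with limma on log2(TPM + 1) and log2(TPM + 0.1), 0.0409 in numbers 1 to 3, and 0.0446 there with the replicate block. Xpo5 gave 0.0097 and 0.00974 with the limma settings, and Prkra -0.0048 in numbers 1 to 3 and -0.0047 with the block. In inhibitor against control, Ago1 gave 0.000936 with upper-quartile scaling, 0.056 in numbers 1 to 3 and 0.0581 with the block. Tarbp2 gave -0.0216 and -0.0135, and Ago3 0.0994 and 0.104, in numbers 1 to 3 without and with the block. In mimic against inhibitor, Xpo5 gave 0.0203 and 0.0204 with limma, and Ago4 -0.113 and -0.0858 in numbers 1 to 3 without and with the block. The cause was not tested.

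Without single libraries, mimic against control ranged from -0.1 to 0.13 for Dgcr8, -0.118 to 0.0561 for Xpo5, -0.176 to 0.0651 for Tarbp2, -0.0925 to 0.104 for Prkra, -0.0481 to 0.126 for Ago2, -0.0473 to 0.209 for Ago3 and -0.475 to 0.0617 for Ago4. Inhibitor against control ranged from -0.165 to 0.0364 for Dgcr8, -0.109 to 0.0778 for Xpo5, -0.114 to 0.127 for Tarbp2, -0.152 to 0.0711 for Prkra, -0.0519 to 0.0521 for Ago1, -0.139 to 0.0344 for Ago2 and -0.126 to 0.13 for Ago3. Mimic against inhibitor ranged from -0.0187 to 0.208 for Dgcr8, -0.0997 to 0.0684 for Xpo5, -0.153 to 0.019 for Tarbp2, -0.074 to 0.167 for Prkra and -0.243 to 0.225 for Ago4.

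In number 4 against numbers 1 to 3, 7 of 9 members kept their side of the threshold in every alternative run, and Ago1 and Ago2 did not. The stricter filter left out Ago3 and Ago4, so it gives no value for them. Ago4 had the fewest counts of the members, at 49 to 130 per library, and how far depth limits it was not tested.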
